A study of Mus musculus with 6 samples.

Results

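Cell cycle and proliferation genes were examined in RNA sequencing of mouse colon from 3 lenvatinib libraries and 3 DMSO libraries. The set held 45 genes, found by symbol among the 25339 genes of the deposited table. It was divided by role into 22 genes of G1/S, when cells commit to and carry out DNA replication, and 23 genes of G2/M, when chromosomes are prepared and segregated. Lenvatinib is an oral inhibitor of several receptor tyrosine kinases, VEGF receptors foremost, and DMSO is the solvent of the control. The labels give the tissue, the treatment and a biological replicate number; they do not state strain, sex, age, dose, length of treatment or whether colitis was induced.

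Values are FPKM, fragments scaled to the length of the gene and the size of the library. Levels can thus be set side by side between genes and libraries, but this scaling does not correct for shifts in composition between libraries. All 45 genes had a row, and all 45 were among the 11774 genes tested, those whose mean over the 6 libraries reached 1 FPKM. Reads assigned to genes, recovered from the steps between FPKM values, numbered 37888767 to 38667992 in the lenvatinib libraries and 37602457 to 39225379 in the DMSO libraries. A cell cycle gene rested on 53 to 8982 reads in a library.

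Libraries stood apart in ways that bear on every value below. Lenvatinib 2 and 3 differed by a median of 0.0503 on the log2(FPKM + 1) scale and DMSO 2 and 3 by 0.0524, against 0.128 to 0.209 for the other pairs, and the labels do not say whether the libraries of such a pair came from separate animals. DMSO 1 was the only library with the Y-linked Ddx3y (6.54 FPKM, listed at 0 in the other 5) and nearly lacked Xist. By these genes DMSO 1 had a male pattern and the other 5 libraries a female one, so the DMSO group mixed the sexes. Sex and any other difference of DMSO 1 cannot be told apart. A p-value here reflects library-to-library spread, which may be technical. Of the colon's defining genes, the carbonic anhydrase Car1 was at 7590 to 10357 FPKM in lenvatinib and 7823 to 9567 FPKM in DMSO. Car1 does not stand for all of them. Over the 8 colon epithelium genes tested, fold changes ran from -3.34 to 0.75 on the log2(FPKM + 1) scale. Hoxb13, too low to be tested, was listed at 0 in all lenvatinib libraries.

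In the colon, dividing cells lie mainly at the base of the crypts, from which new epithelium moves to the surface, and lymphocytes also divide in lymphoid follicles. Before replication, CDC6 and CDT1 load the MCM helicase on origins, and E2F factors, released when cyclin and CDK complexes phosphorylate the RB protein, switch on the genes of replication and nucleotide supply. Genes of G2 and mitosis peak later: the MuvB complex, joined by B-MYB and FOXM1, acts on them through a promoter element called CHR (cell cycle genes homology region), often placed downstream of CCAAT boxes that bind NF-Y. APC/C, a ubiquitin ligase, then destroys cyclins to end mitosis.

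Promoters of 3 genes of each class, those with the lowest log2(FPKM + 1) fold changes among genes with a single entry, are shown because the classes differ in how often they hold these elements. They are RefSeq windows of build GRCm38.p6, while the expression table is of GRCm39, and run from 220 bases before to 30 bases after the annotated start, 5′ to 3′, and capitals mark 3 kinds of match on either strand: CHR (TTTGAA), the CCAAT box by its own letters, and E2F words (TTTCCCGC, TTTGGCGC or TTTCGCGC). Ube2c lies at chr2:164769709-164769958 (plus strand), Ccnb2 at chr9:70421525-70421774 (minus strand), Cenpa at chr5:30666666-30666915 (plus strand), Mcm5 at chr8:75109289-75109538 (plus strand), Mcm3 at chr1:20820283-20820532 (minus strand) and Mcm2 at chr6:88898751-88899000 (minus strand).
Ube2c: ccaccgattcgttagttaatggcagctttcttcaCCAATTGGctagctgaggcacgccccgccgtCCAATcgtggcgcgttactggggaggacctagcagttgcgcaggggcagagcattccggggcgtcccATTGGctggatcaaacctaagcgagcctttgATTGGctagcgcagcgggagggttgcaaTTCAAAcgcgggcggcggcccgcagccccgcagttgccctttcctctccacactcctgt
Ccnb2: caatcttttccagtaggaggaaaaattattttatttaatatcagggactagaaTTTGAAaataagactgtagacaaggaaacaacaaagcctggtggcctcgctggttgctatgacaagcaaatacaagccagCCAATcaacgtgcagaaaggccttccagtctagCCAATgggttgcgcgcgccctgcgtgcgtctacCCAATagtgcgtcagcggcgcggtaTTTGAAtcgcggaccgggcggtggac
Cenpa: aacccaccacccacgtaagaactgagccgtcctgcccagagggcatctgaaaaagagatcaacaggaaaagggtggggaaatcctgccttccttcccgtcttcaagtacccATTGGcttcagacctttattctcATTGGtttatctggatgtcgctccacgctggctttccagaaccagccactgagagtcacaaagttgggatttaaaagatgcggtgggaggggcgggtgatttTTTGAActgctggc
Mcm5: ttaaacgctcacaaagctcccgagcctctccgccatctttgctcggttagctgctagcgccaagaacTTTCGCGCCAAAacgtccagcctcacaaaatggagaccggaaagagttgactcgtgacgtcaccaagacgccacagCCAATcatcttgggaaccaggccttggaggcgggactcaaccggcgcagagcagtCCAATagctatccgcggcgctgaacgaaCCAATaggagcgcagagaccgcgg
Mcm3: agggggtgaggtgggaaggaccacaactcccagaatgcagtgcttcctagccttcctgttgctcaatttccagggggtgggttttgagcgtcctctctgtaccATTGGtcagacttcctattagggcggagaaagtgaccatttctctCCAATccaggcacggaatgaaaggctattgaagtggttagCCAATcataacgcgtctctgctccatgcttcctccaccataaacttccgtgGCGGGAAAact
Mcm2: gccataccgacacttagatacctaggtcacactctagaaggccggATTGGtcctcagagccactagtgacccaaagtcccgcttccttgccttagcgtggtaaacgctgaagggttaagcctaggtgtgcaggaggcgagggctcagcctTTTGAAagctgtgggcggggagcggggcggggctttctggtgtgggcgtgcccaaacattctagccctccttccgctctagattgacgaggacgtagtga

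Each of the 3 G2/M promoters holds CHR, within 29 bases of the start in all of them: at -29 to -24 in Ube2c, at 5 to 10 in Ccnb2 (with a further match at -167 to -162), and at 17 to 22 in Cenpa. Mcm5 holds a pair of overlapping E2F words on opposite strands at -153 to -142, and Mcm3 holds E2F words at 20 to 27 and, beyond the stretch shown, at 39 to 46. Mcm2 holds a CHR match at -70 to -65 and no E2F word, so the division is not strict.

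Over the whole windows, 300 bases reaching from 250 before to 50 after the start, 37 of the 45 genes had an entry, with 39 promoters. CHR was found in 13 of 18 G2/M promoters (72.2%) and in 2 of 21 G1/S promoters (9.52%), against 17.9% of all 32851 promoters. All 13 of those G2/M promoters also held a CCAAT box, a combination found in 6.95% of all promoters. An E2F word was found in 7 of 21 G1/S promoters (33.3%) and in 1 of 18 G2/M promoters (5.56%), against 1.84% of all promoters. CCAAT boxes were found in 16 of 18 G2/M and 11 of 21 G1/S promoters, against 37.4% of all. These matches describe letters in the windows and not binding. They use no expression value.

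**Figure D1:**
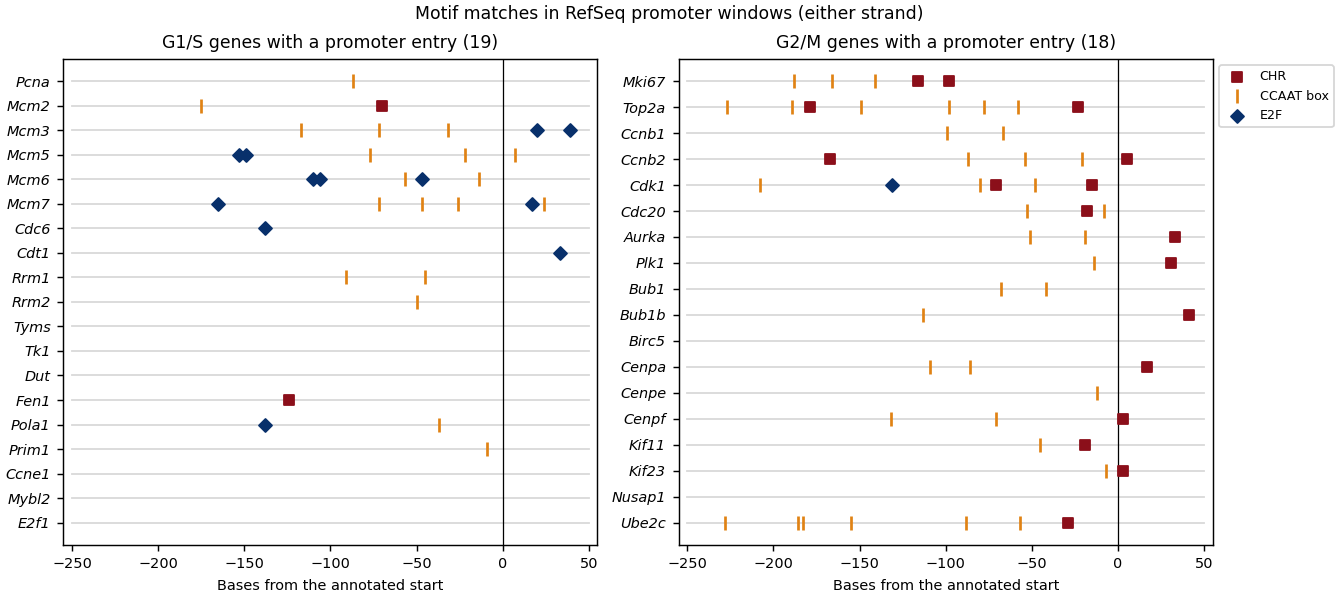
Positions of CHR, CCAAT box and E2F word matches in the RefSeq promoter windows of the 19 G1/S genes (left) and 18 G2/M genes (right) with an entry; the horizontal axis is the distance in bases from the annotated start. CHR squares appear in 13 G2/M genes and in 2 G1/S genes, and E2F diamonds appear in 7 G1/S genes and 1 G2/M gene.

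Cell cycle transcripts were much lower in lenvatinib 2 and 3 than in any DMSO library, while lenvatinib 1 lay at the DMSO level. As a percentage of the DMSO mean, the median G2/M gene stood at 103% in lenvatinib 1, 29.7% in lenvatinib 2 and 31.0% in lenvatinib 3, against 89.9%, 106% and 106% in DMSO 1 to 3. The median G1/S gene stood at 108%, 42.9% and 43.4% in lenvatinib 1 to 3, against 82.4%, 110% and 110% in DMSO 1 to 3. The median of all genes tested was 100.3%, 92.1% and 91.9% in lenvatinib 1 to 3. In bulk tissue, fewer dividing cells and less RNA of these genes per cell cannot be told apart.

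With 3 libraries a group none of the 45 genes passed the test (limma, adjusted p = 0.0829 to 0.438). Over all genes tested, 0.934% passed as lower and 1.1% as higher. All 45 fold changes were negative, with a median of -0.62 over the G1/S genes and -0.93 over the G2/M genes on the log2(FPKM + 1) scale, against -0.07 over all genes tested, of which 63.9% were negative. The G1/S and G2/M medians were -1.04 and -1.41 without lenvatinib 1, and -0.35 and -0.65 with the near-identical libraries 2 and 3 of each group averaged. An unadjusted p below 0.05 was reached by 2 of 22 G1/S genes and 9 of 23 G2/M genes, all lower, against 14.5% of all genes tested. All 3 lenvatinib libraries lay below all 3 DMSO libraries for 1 G1/S gene, Ccne2, and for 2 G2/M genes, Ccnb2 and Cenpf, against 17.5% of all genes tested.

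Lenvatinib 2 and 3 were both below every DMSO library for all 22 G1/S and all 23 G2/M genes, against 46.6% of all genes tested. Lenvatinib 1 lay within the DMSO range for 12 G1/S and 17 G2/M genes, above it for 9 and 4, and below it for 1 and 2. Its level was 1.54 to 4.30 times the mean of lenvatinib 2 and 3, with a median of 3.09. Without lenvatinib 1, all 22 G1/S and all 23 G2/M genes passed as lower (limma, adjusted p = 2.01e-04 to 0.0215), where 28.1% of all genes tested did. That fit sets a near-identical pair against 3 libraries. Without DMSO 1, none of the 45 passed (limma, adjusted p = 0.0512 to 0.385), where 1.05% of all genes tested passed as lower.

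**Figure D2:**
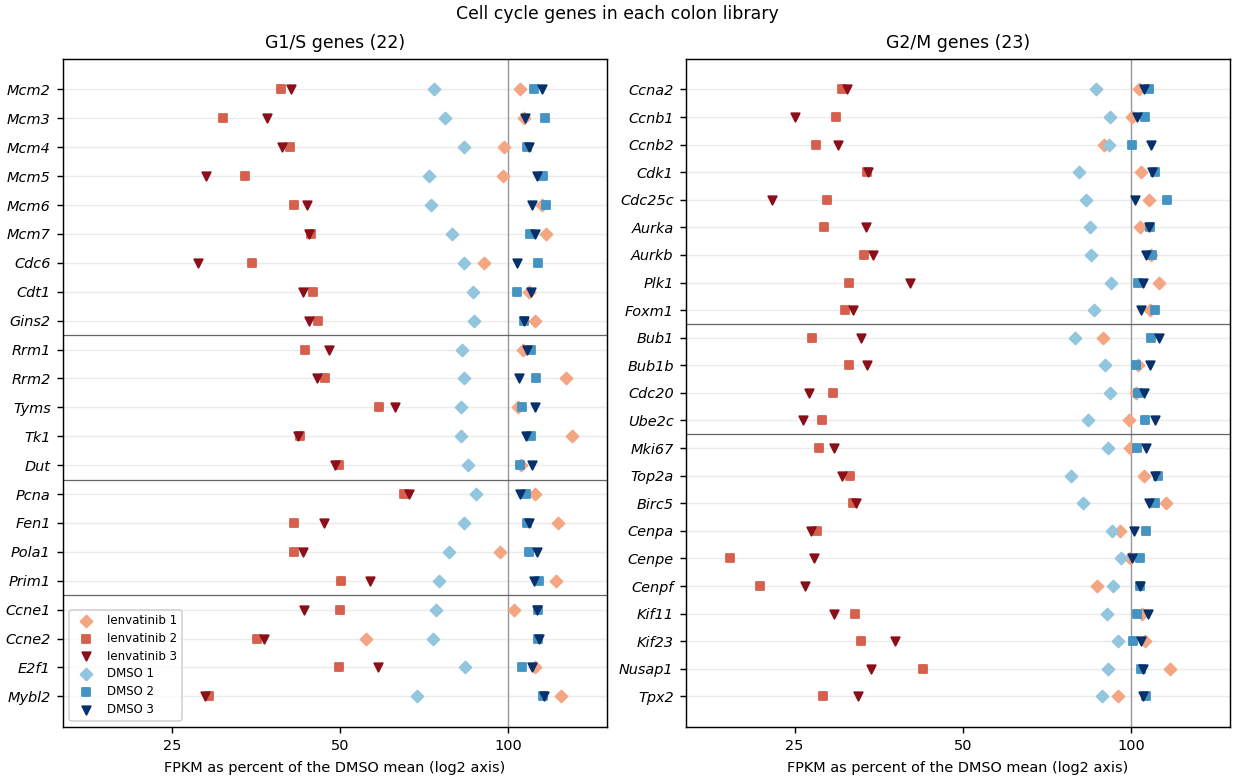
FPKM of each cell cycle gene as a percentage of its DMSO mean (log2 axis) in the 3 lenvatinib and 3 DMSO libraries, with G1/S genes on the left and G2/M genes on the right; horizontal lines divide the genes by role in the order of the text. Lenvatinib 2 and 3 lie at 27.8 to 66.3% for G1/S genes and 19.2 to 42.4% for G2/M genes, left of all DMSO points, and lenvatinib 1 lies among the DMSO points for most genes.

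**Figure D3:**
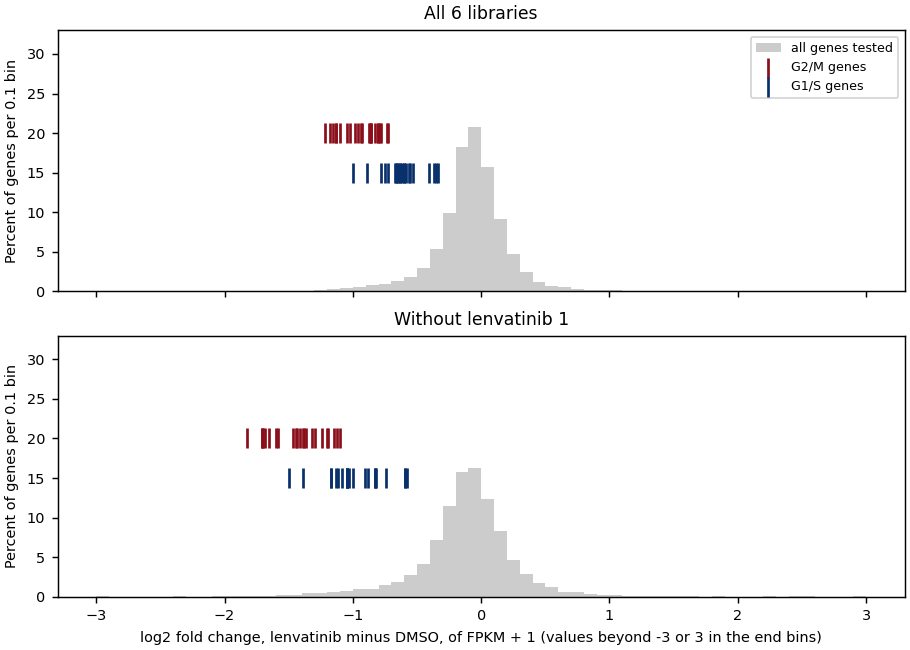
Log2 fold changes (lenvatinib minus DMSO, FPKM + 1) of all genes tested as a histogram in percent of genes per bin of 0.1, with a tick for each G2/M and G1/S gene at an arbitrary height, from all 6 libraries (above) and without lenvatinib 1 (below). Every cell cycle tick lies left of 0, and the G2/M ticks (median -0.93 with all libraries) lie further left than the G1/S ticks (median -0.62).

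Origin licensing begins the G1/S programme. The MCM proteins form the ring that unwinds DNA, and Mcm5 measured 18.2, 6.29 and 5.35 FPKM in lenvatinib 1 to 3, against 13.4, 21.5 and 20.9 FPKM in DMSO 1 to 3. Its log2(FPKM + 1) fold change was the lowest of the G1/S genes, though the ratio of mean FPKM, lenvatinib over DMSO, was lower for Ccne2 (0.426) and Cdc6 (0.511) than for Mcm5 (0.534). The fold change of Mcm5 had a 95% interval of -2.07 to 0.06 (SE 0.44, limma adjusted p = 0.244). Lenvatinib 1 lay inside the DMSO range, and lenvatinib 2 and 3 lay below DMSO 1, the lowest DMSO library. Mcm3 showed the same order, with 16.9, 4.90 and 5.86 FPKM in lenvatinib 1 to 3 and 12.2, 18.4 and 17.0 FPKM in DMSO 1 to 3. Mcm2 had 16.4, 6.13 and 6.39 FPKM in lenvatinib 1 to 3, against 11.5, 17.4 and 18.0 FPKM in DMSO 1 to 3. Mcm4, Mcm6 and Mcm7 lay between 5.27 and 9.92 FPKM in lenvatinib 2 and 3 and between 11.1 and 24.9 FPKM in DMSO, so these groups of values did not meet, while lenvatinib 1 had 13.2 to 26.2 FPKM.

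The loading factors were lower in the same libraries. Cdc6 measured 1.93, 0.743 and 0.593 FPKM in lenvatinib 1 to 3, against 1.78, 2.41 and 2.21 FPKM in DMSO 1 to 3, on 110 to 458 reads a library. Cdt1 averaged 7.57 ± 4.35 FPKM in lenvatinib and 11.5 ± 1.42 FPKM in DMSO, and Gins2, of the GINS complex that activates the helicase, 6.66 ± 3.82 FPKM in lenvatinib and 9.93 ± 1.13 FPKM in DMSO (SD, n = 3 each). The 9 licensing and helicase genes stood at 27.8 to 45.7% of the DMSO mean in lenvatinib 2 and 3.

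The 5 nucleotide supply genes stood at 42.0 to 62.8% of the DMSO mean in lenvatinib 2 and 3. Rrm2, the regulatory subunit of ribonucleotide reductase, measured 35.1, 13.0 and 12.6 FPKM in lenvatinib 1 to 3, against 23.1, 31.1 and 29.0 FPKM in DMSO 1 to 3. Here lenvatinib 1 was the highest of the 6 libraries, and the log2 fold change of -0.58 had a 95% interval of -1.52 to 0.36. Thymidine kinase Tk1 likewise was highest in lenvatinib 1, at 22.8 FPKM, with 7.42 and 7.35 FPKM in lenvatinib 2 and 3 and 14.4 to 19.3 FPKM in DMSO. Tyms, for thymidylate synthase, averaged 4.47 ± 1.49 FPKM in lenvatinib and 5.95 ± 0.925 FPKM in DMSO (SD, n = 3 each), and stood at 58.7 and 62.8% of the DMSO mean in lenvatinib 2 and 3. The catalytic subunit Rrm1 averaged 12.8 ± 6.82 FPKM in lenvatinib and 19.5 ± 2.94 FPKM in DMSO, and Dut, which removes dUTP, 6.75 ± 3.20 FPKM in lenvatinib and 9.93 ± 1.36 FPKM in DMSO.

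At the fork, Pcna had the highest FPKM of the 45 genes in DMSO and the fold change nearest to 0. The sliding clamp that it encodes also serves in DNA repair. It measured 91.2, 53.1 and 54.1 FPKM in lenvatinib 1 to 3, against 71.3, 87.7 and 85.7 FPKM in DMSO 1 to 3 (log2 fold change -0.34, 95% interval -0.87 to 0.20). Prim1, the catalytic primase subunit, averaged 5.56 ± 2.88 FPKM in lenvatinib and 7.30 ± 1.57 FPKM in DMSO, and the polymerase α subunit Pola1 1.84 ± 0.961 FPKM in lenvatinib and 3.05 ± 0.574 FPKM in DMSO. The flap nuclease Fen1 averaged 8.88 ± 5.75 FPKM in lenvatinib and 12.6 ± 1.84 FPKM in DMSO (SD, n = 3 each). Each was higher in lenvatinib 1 than in lenvatinib 2 and 3, which stood at 41.3 to 66.3% of the DMSO mean over these 4 genes.

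Among the regulators of G1/S, cyclin E2 departed from the common order. Ccne2 measured 1.24, 0.794 and 0.816 FPKM in lenvatinib 1 to 3, against 1.64, 2.53 and 2.54 FPKM in DMSO 1 to 3. Lenvatinib 1 was at 55.6% of the DMSO mean, below every DMSO library, and the log2 fold change of -0.72 (95% interval -1.10 to -0.35) had the lowest p of the 45 genes without passing (limma adjusted p = 0.0829; 0.00981 to 0.893 over the 16 alternatives in which it was tested). Cyclin E1, the other activator of CDK2 of this family, is encoded by Ccne1, which measured 4.86, 2.37 and 2.05 FPKM in lenvatinib 1 to 3, against 3.53, 5.35 and 5.34 FPKM in DMSO 1 to 3, so there lenvatinib 1 lay inside the DMSO range. E2f1 itself measured 3.11, 1.39 and 1.62 FPKM in lenvatinib 1 to 3, against 2.33, 2.95 and 3.07 FPKM in DMSO 1 to 3. Mybl2, which encodes B-MYB, averaged 1.63 ± 1.48 FPKM in lenvatinib and 2.68 ± 0.730 FPKM in DMSO, and stood at 28.7 to 29.2% of the DMSO mean in lenvatinib 2 and 3 (SD, n = 3 each).

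Cyclins, kinases and regulators that drive mitosis had log2 fold changes of -0.73 to -1.18. Ccnb1, cyclin B1, measured 20.2, 5.99 and 5.05 FPKM in lenvatinib 1 to 3, against 18.5, 21.3 and 20.7 FPKM in DMSO 1 to 3 (log2 fold change -1.13, SE 0.46, limma adjusted p = 0.226). Ccnb2, cyclin B2, measured 25.5, 7.81 and 8.54 FPKM in lenvatinib 1 to 3, against 26.1, 28.6 and 31.0 FPKM in DMSO 1 to 3. For Ccnb2 all 3 lenvatinib libraries were below DMSO, though lenvatinib 1 only just, and its log2 fold change of -1.18 did not pass (limma adjusted p = 0.190; 3.16e-04 to 0.925 over the 17 alternatives). Cdk1, the kinase that both cyclins activate, averaged 5.65 ± 4.02 FPKM in lenvatinib and 9.88 ± 1.66 FPKM in DMSO, and Ccna2, cyclin A2, 16.8 ± 12.8 FPKM in lenvatinib and 30.7 ± 3.56 FPKM in DMSO (SD, n = 3 each).

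The SD in lenvatinib, near the size of the mean, came from lenvatinib 1. Plk1, a kinase of centrosomes and kinetochores, measured 23.8, 6.63 and 8.51 FPKM in lenvatinib 1 to 3, against 19.5, 21.8 and 22.3 FPKM in DMSO 1 to 3. Aurora kinase Aurka averaged 6.69 ± 5.11 FPKM in lenvatinib and 12.2 ± 1.63 FPKM in DMSO, and Aurkb, of the chromosomal passenger complex, 7.73 ± 5.66 FPKM in lenvatinib and 13.2 ± 1.75 FPKM in DMSO. The phosphatase Cdc25c, which activates CDK1, rested on as few as 53 reads and measured 3.05, 0.812 and 0.648 FPKM in lenvatinib 1 to 3, against 2.36, 3.29 and 2.88 FPKM in DMSO 1 to 3. Foxm1, the mitotic transcription factor, measured 6.84, 1.95 and 2.02 FPKM in lenvatinib 1 to 3, against 5.44 FPKM in DMSO 1, the lowest DMSO library. These 9 genes lay at 22.8 to 40.2% of the DMSO mean in lenvatinib 2 and 3 and at 89.3 to 112% in lenvatinib 1.

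Genes of APC/C and the spindle checkpoint included Ube2c, whose fold change was the lowest of the set on the log2(FPKM + 1) scale but not as a ratio of mean FPKM, where Ube2c (0.511) lay above Ccne2 (0.426) and Cenpf (0.449) among others. Ube2c, the ubiquitin-conjugating enzyme of APC/C whose promoter is shown above, measured 64.5, 18.2 and 16.9 FPKM in lenvatinib 1 to 3, against 54.5, 68.8 and 71.8 FPKM in DMSO 1 to 3 (log2 fold change -1.22, SE 0.50, limma adjusted p = 0.228). Cdc20, the APC/C activator, measured 26.2, 7.55 and 6.81 FPKM in lenvatinib 1 to 3, against 23.6, 26.5 and 27.1 FPKM in DMSO 1 to 3. In both, lenvatinib 1 lay inside the DMSO range and lenvatinib 2 and 3 lay far below it. The checkpoint kinase Bub1 averaged 1.73 ± 1.19 FPKM in lenvatinib and 3.48 ± 0.624 FPKM in DMSO, and Bub1b, which encodes BUBR1, 6.92 ± 5.04 FPKM in lenvatinib and 12.4 ± 1.14 FPKM in DMSO (SD, n = 3 each).

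Among chromosome and spindle genes, Mki67, which encodes the Ki-67 antigen used to stain dividing cells, measured 21.0, 5.83 and 6.20 FPKM in lenvatinib 1 to 3, against 19.2, 21.7 and 22.5 FPKM in DMSO 1 to 3. Its log2 fold change was -1.10 with a 95% interval of -2.19 to -0.02 (limma adjusted p = 0.223). Top2a, the topoisomerase that untangles sister chromatids, measured 35.3, 10.5 and 10.2 FPKM in lenvatinib 1 to 3, against 26.1, 37.4 and 36.9 FPKM in DMSO 1 to 3. In neither gene did lenvatinib 1 leave the DMSO range. Cenpa, the histone variant of centromeres, measured 19.0, 5.47 and 5.33 FPKM in lenvatinib 1 to 3, against 18.4, 21.1 and 20.2 FPKM in DMSO 1 to 3. The kinetochore genes Cenpe and Cenpf reached the lowest percentages of the set, 19.2 and 21.7% of the DMSO mean in lenvatinib 2. Cenpf measured 2.02 FPKM in lenvatinib 1, just below the DMSO range of 2.16 to 2.41 FPKM.

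The motor and spindle genes followed the same order. The kinesin Kif11, which pushes spindle poles apart, measured 10.8, 3.30 and 3.03 FPKM in lenvatinib 1 to 3, against 9.34, 10.5 and 11.0 FPKM in DMSO 1 to 3, and Kif23, needed for cytokinesis, averaged 4.89 ± 3.39 FPKM in lenvatinib and 8.31 ± 0.397 FPKM in DMSO. Tpx2, which activates Aurora A on the spindle, measured 9.14, 2.72 and 3.14 FPKM in lenvatinib 1 to 3, against 8.58 FPKM in DMSO 1, the lowest DMSO library. Birc5, for survivin, measured 12.0, 3.31 and 3.35 FPKM in lenvatinib 1 to 3, against 8.54, 11.5 and 11.2 FPKM in DMSO 1 to 3, and the spindle protein gene Nusap1 averaged 6.70 ± 4.75 FPKM in lenvatinib and 10.4 ± 0.817 FPKM in DMSO (SD, n = 3 each). Birc5, Kif23 and Nusap1 were highest in lenvatinib 1 of all 6 libraries.

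**Figure D4:**
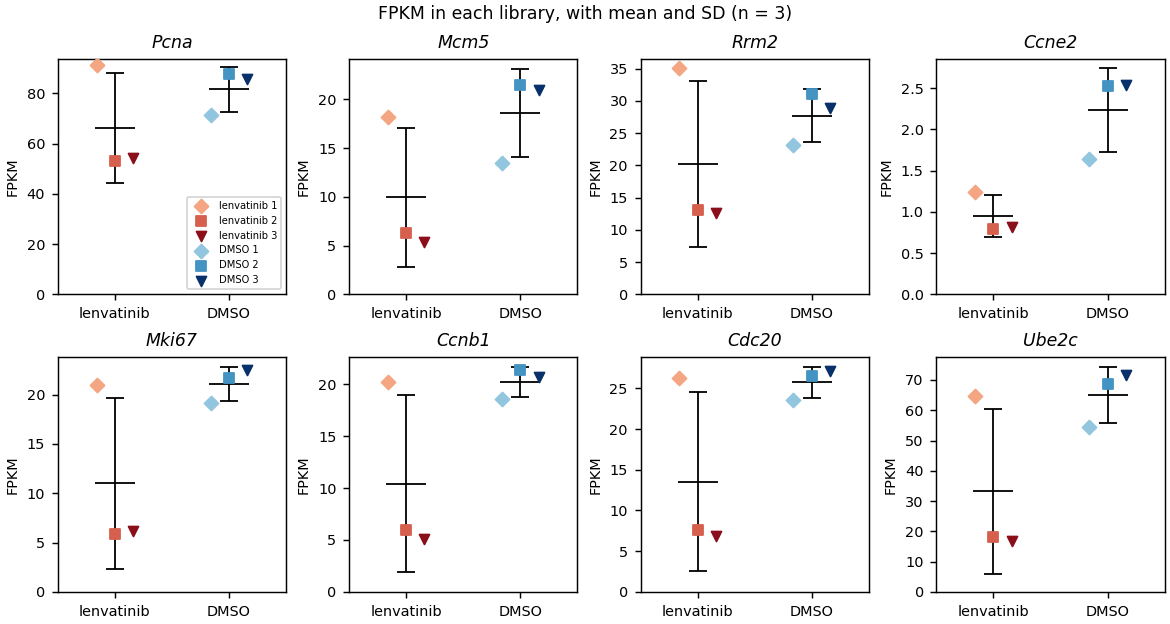
FPKM of 4 G1/S genes (top) and 4 G2/M genes (bottom) in each library, with the mean and SD of the 3 libraries per group; vertical axes start at 0 and differ between panels. Lenvatinib 1 sits among or above the DMSO points except for Ccne2, and lenvatinib 2 and 3 sit below them.

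The balance between the phases differed between libraries. The mean log2(FPKM + 1) of the G2/M genes minus that of the G1/S genes was 0.18, -0.21 and -0.19 in lenvatinib 1 to 3, against 0.36, 0.20 and 0.20 in DMSO 1 to 3. This value was thus lower in lenvatinib 2 and 3 than in the 4 libraries with higher cell cycle levels. Its sign depends on which genes each class holds, so only differences between libraries can be read. Lenvatinib 1 was close to DMSO 2 and 3, and DMSO 1, in which all 45 genes were the lowest of the DMSO group, had the highest value. The lenvatinib minus DMSO difference was -0.33 with all libraries, -0.46 without lenvatinib 1 and -0.27 without DMSO 1. No test was made of this contrast.

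Other genes of the same processes were also low in lenvatinib 2 and 3 and near DMSO in lenvatinib 1. Of 42 tested genes of the spindle, kinetochore and mitotic chromosomes outside the set none passed (17 had an unadjusted p below 0.05, all lower, against 14.5% of all genes tested), and their median stood at 99.6%, 33.8% and 31.6% of the DMSO mean in lenvatinib 1 to 3. Mad2l1, a spindle checkpoint protein, measured 12.1, 4.71 and 4.25 FPKM in lenvatinib 1 to 3, against 12.6, 15.7 and 16.2 FPKM in DMSO 1 to 3, so all lenvatinib libraries were below DMSO (log2 fold change -1.10, limma adjusted p = 0.162; 9.40e-04 to 0.925 over the 17 alternatives). The phosphatase Cdc25b averaged 6.58 ± 3.02 FPKM in lenvatinib and 11.8 ± 1.12 FPKM in DMSO. Fbxo5, the APC/C inhibitor EMI1, and the cytokinesis factor Ect2 were the next by p, with log2 fold changes of -0.64 and -0.91. At the upper end of the mitotic list, chosen after its value was seen, Pttg1, for securin, measured 5.31, 6.13 and 6.02 FPKM in lenvatinib 1 to 3 and 6.44, 5.74 and 6.37 FPKM in DMSO 1 to 3, and its groups overlapped.

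Replication genes outside the set had median log2 fold changes of -0.45 at the fork and -0.42 in licensing. None of 23 fork enzymes and none of 19 licensing and firing genes passed (2 and 3 had an unadjusted p below 0.05, all lower, against 14.5% of all genes tested, so these counts are near or below the share over all genes), with medians of 53.6 and 51.3% of the DMSO mean in lenvatinib 2 and 110 and 100.3% in lenvatinib 1. Orc1, the origin recognition subunit that cycles, averaged 0.953 ± 0.227 FPKM in lenvatinib and 1.73 ± 0.282 FPKM in DMSO, and the polymerase ε subunit Pole2 1.46 ± 0.716 FPKM in lenvatinib and 2.75 ± 0.301 FPKM in DMSO (SD, n = 3 each). Orc2, Dbf4, Gmnn, Rpa1, Rpa3 and Rfc1 had log2 fold changes of -0.29 to -0.67 and did not pass.

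In the list of CDK inhibitors and growth arrest genes, fold changes went both ways. Of the 15 tested, 9 were negative, near the 63.9% of all genes tested. Of 15 tested CDK inhibitors and growth arrest genes 1 passed, higher, where 1.1% of all genes tested did. At an unadjusted p below 0.05, 5 were lower and 3 higher, where 14.5% of all genes tested were lower. The median of the 15 stood at 105%, 92.5% and 91.8% of the DMSO mean in lenvatinib 1 to 3. The gene that passed was Cdkn2b, which encodes the CDK4 and CDK6 inhibitor p15. It measured 18.9, 17.6 and 18.4 FPKM in lenvatinib 1 to 3, against 13.9, 14.3 and 14.0 FPKM in DMSO 1 to 3 (log2 fold change 0.36, SE 0.06, limma adjusted p = 0.0374). All 3 lenvatinib libraries, lenvatinib 1 included, were above DMSO. The call was lost in 10 of 17 alternatives (limma adjusted p = 0.00539 to 0.744 over them), among them those without DMSO 1 (0.0620) and with libraries 2 and 3 averaged (0.744), and leaving out any library other than lenvatinib 1 ended it. Ccng1, Btg1 and Gadd45a were the next by p and had log2 fold changes of -0.37, 0.20 and -0.56 without passing. Btg1 and Cdkn1a, the latter chosen after its values were seen, also lay above DMSO in all 3 lenvatinib libraries. Cdkn1a did not pass (log2 fold change 0.19, limma adjusted p = 0.262). For 6 of the 15 genes, all 3 lenvatinib libraries lay below all 3 DMSO libraries, against 17.5% of all genes tested.

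Of 22 tested G1 cyclins, CDKs, E2F and RB family genes none passed (8 had an unadjusted p below 0.05, all lower, against 14.5% of all genes tested). Their median stood at 99.2%, 74.3% and 75.8% of the DMSO mean in lenvatinib 1 to 3. Ccnd2, cyclin D2, measured 18.9, 15.8 and 14.9 FPKM in lenvatinib 1 to 3, against 20.4, 25.3 and 24.8 FPKM in DMSO 1 to 3 (log2 fold change -0.48, limma adjusted p = 0.107; 0.0102 to 0.925 over the 17 alternatives). Its groups did not overlap. Ccnd3, Cdk2 and E2f6 followed by p, at log2 fold changes of -0.39, -0.42 and -0.23.

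**Figure D5:**
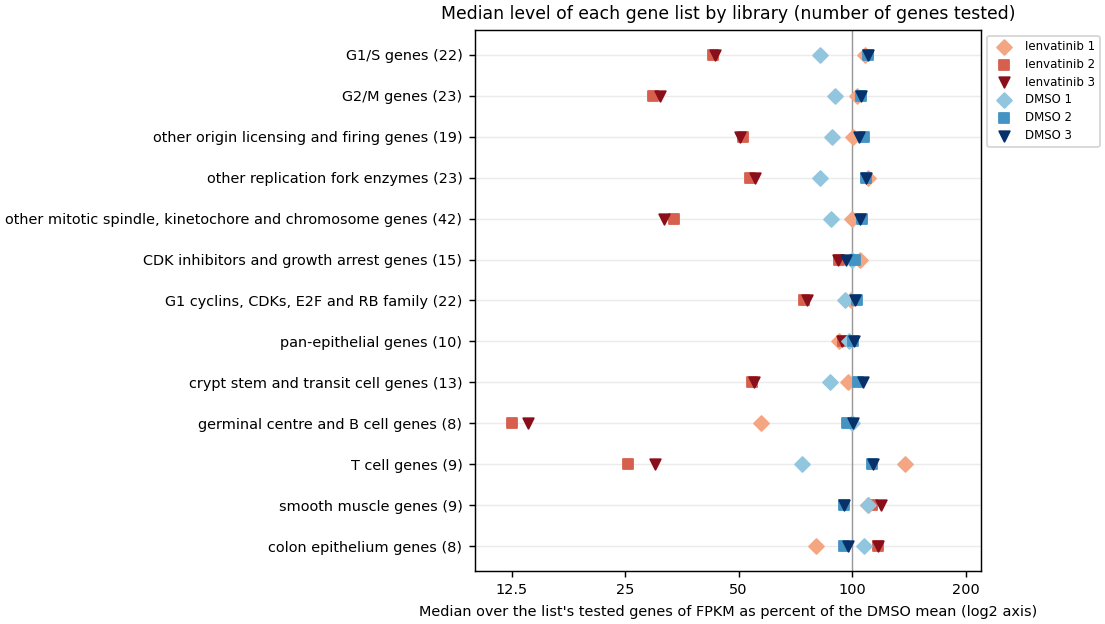
Median over each list's tested genes of FPKM as a percentage of the DMSO mean (log2 axis), by library, for the cell cycle lists, their regulators and marker lists of cell types; the number of genes tested is in parentheses. Lenvatinib 2 and 3 lie at 29.7 to 33.8% for both mitotic lists, at 42.9 to 55.4% for the replication lists and at 93.7 to 94.7% for pan-epithelial genes.

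The 10 pan-epithelial genes, Epcam and Krt8 among them, summed to 6808 to 7079 FPKM in lenvatinib and 7268 to 7678 FPKM in DMSO, and lenvatinib 1 had the lowest sum. None of the 10 passed (1 had an unadjusted p below 0.05, lower, against 14.5% of all genes tested). For 5 of the 10, all 3 lenvatinib libraries lay below all 3 DMSO libraries, against 17.5% of all genes tested. The 13 crypt stem and transit cell genes summed to 132, 73.3 and 73.8 FPKM in lenvatinib 1 to 3, against 124, 147 and 147 FPKM in DMSO 1 to 3. None of the 13 passed (5 had an unadjusted p below 0.05, all lower, against 14.5% of all genes tested). For 4 of the 13, the lowest-p gene Cd44 among them, all 3 lenvatinib libraries lay below all 3 DMSO libraries, against 17.5% of all genes tested. Cd44, an adhesion receptor and Wnt target, measured 17.4, 7.44 and 7.69 FPKM in lenvatinib 1 to 3, against 20.5, 23.8 and 24.6 FPKM in DMSO 1 to 3. Lgr5, the receptor that marks crypt stem cells, was chosen after its values were seen and measured 3.27, 0.598 and 0.751 FPKM in lenvatinib 1 to 3, against 2.27, 3.44 and 3.31 FPKM in DMSO 1 to 3, so lenvatinib 1 lay inside the DMSO range for this gene.

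None of the 9 tested T cell genes passed, and none had an unadjusted p below 0.05 (lowest limma adjusted p = 0.297). They summed to 88.7, 18.3 and 20.5 FPKM in lenvatinib 1 to 3, against 46.6, 70.8 and 70.3 FPKM in DMSO 1 to 3, so lenvatinib 1 held the highest sum. None of the 8 tested of 15 germinal centre and B cell genes passed (lowest limma adjusted p = 0.0560). An unadjusted p below 0.05 was reached by 7 of the 8, all lower, against 14.5% of all genes tested. The 15 summed to 49.5, 14.4 and 15.4 FPKM in lenvatinib 1 to 3, against 80.6 to 95.2 FPKM in DMSO. For these lenvatinib 1 too was below DMSO. Of these, Mef2b was listed at 0 in 4 of 6 libraries. Of 8 tested small intestine genes 7 passed as higher, where 1.1% of all genes tested did. Their list's median stood at 1484%, 3841% and 3622% of the DMSO mean in lenvatinib 1 to 3. The list's summed FPKM moved far less. It was 520, 755 and 726 FPKM in lenvatinib 1 to 3, against 414.5, 548 and 554 FPKM in DMSO 1 to 3. By that sum lenvatinib 1 lay inside the DMSO range. The median of the colon epithelium list stood at 80.1%, 117% and 117% in lenvatinib 1 to 3. None of its 8 tested genes passed (2 lower and 1 higher at an unadjusted p below 0.05, where 14.5% of all genes tested were lower). By list medians, lenvatinib 1 thus differed from lenvatinib 2 and 3 in these lists too, but it did not lie at the DMSO level as in the cell cycle genes. In the B cell and small intestine lists it left DMSO in the same direction as lenvatinib 2 and 3, by less. For the small intestine list this held by median and not by sum. In the T cell and colon epithelium lists lenvatinib 1 lay on the opposite side of DMSO from lenvatinib 2 and 3. Smooth muscle genes summed to 1482 to 1794 FPKM in lenvatinib and 1402 to 1543 FPKM in DMSO. The part of any of these cell types or regions in the cell cycle values was not tested.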

How the data were processed

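Per the labels' protocols, total RNA of mouse colon was isolated with TRIzol, and a VAHTS kit served for library preparation. The deposited values are FPKM computed by the authors. Per the submitters' processing notes, HTSeq and build GRCm39 were used; for the aligner, annotation, strand setting and filters, details were not given in the sources used here. For reads that overlapping or near-identical genes share, the split is therefore unknown.

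Genes whose mean reached 1 FPKM were compared on log2(FPKM + 1), a pseudocount of 1 that understates the change of low genes, with limma 3.58.1 (trended, robust prior) in R 4.3.3, two-sided, with Benjamini-Hochberg adjustment over all 11774 genes tested and a threshold of 0.05. Fold changes are lenvatinib minus DMSO. The script was tested on simulated data. Alternatives in scaling, filter, pseudocount, model and libraries left out are described in the closing section. Reads were recovered from the FPKM steps within 0.01 reads for 99.97% of the 23951 genes above 0; depth covers counting error only. The members and gene lists were chosen with earlier results of these data known. All members are named, and up to 4 genes per related cell cycle list by unadjusted p. Marker lists are given by sums, medians and counts with single genes as examples. Promoter windows are RefSeq's of build GRCm38.p6, matched by symbol for 37 members, and coordinates are of that build only.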

Additional observations from a re-analysis of the deposited data

How the results depend on the processing

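All 45 cell cycle genes kept a negative fold change in each of the 17 alternatives in which they were tested, and 16 alternatives called none of them. The exception left out lenvatinib 1: leaving out a library in turn called 0 to 22 G1/S and 0 to 23 G2/M genes. The G1/S median log2 fold change ranged from -1.04 to -0.35 and the G2/M median from -1.41 to -0.65 over the alternatives. Over all genes, the calls (129 higher, 110 lower) were 22 to 1162 higher and 22 to 3294 lower when a library was left out. They were 74 higher and 66 lower with no filter on low values, 2 and 2 with libraries 2 and 3 averaged, and 27 and 19 with them as a random block. With the replicate number as a block, 18 were higher and 11 lower. Deviations of same-numbered libraries from their group means correlated at -0.196, -0.159 and -0.151. Because libraries 2 and 3 of each group were near-identical, these values cannot tell whether same-numbered libraries were paired or shared a batch. Rescaling (median of ratios, with or without the members and mitochondrial, haemoglobin and immunoglobulin genes) and quantile normalization moved the median of all genes by 0.065 to 0.075. The pseudocount of 0.1, the mean of at least 5 FPKM, the plain variance prior and voom on recovered reads kept both counts within 1.5 times (voom 121 higher and 114 lower). The low FPKM of Cdc6, Cdc25c, Cenpe, Cenpf and Ccne2 limits the precision of their ratios. Whether libraries 2 and 3 of a group are separate animals limits every p-value.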

Other observations

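The promoter elements were also counted in the related lists. CHR was found in 32 of 42 promoters (76.2%) of the other mitotic spindle, kinetochore and chromosome genes, and with a CCAAT box in 24 of 42 (57.1%). It was found in 2 of 25 promoters (8.0%) of the other replication fork enzymes and in 5 of 19 (26.3%) of the other licensing and firing genes. E2F words were found in 7 of 25 (28.0%) fork enzyme promoters, in 4 of 19 (21.1%) licensing promoters and in 3 of 42 (7.14%) mitotic promoters. Among the G1 cyclins, CDKs, E2F and RB family they were found in 10 of 24 (41.7%). CDK inhibitors and growth arrest genes had CHR in 1 of 16 promoters and an E2F word in 1 of 16.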
